A study of Mus musculus with 18 samples.

Results

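Mature metaphase II (MII) oocytes were compared with oocytes from primary follicles, both grown in vivo in female mice. The sectioned ovaries came from F1 mice of the C57Bl/6j x CBA/J cross. The cross of the adult females that gave the MII oocytes is not stated separately. The comparison held 6 of the 18 RNA-seq libraries of the series, 3 of each stage, chosen by their labels. MII oocytes were ovulated by adult females (9 animals in all) after 10 IU of human menopausal gonadotrophin and, 48 h later, 10 IU of human chorionic gonadotrophin, and were pooled at 10 oocytes per tube. Oocytes of follicles with 1 cuboidal granulosa layer were cut by laser from paraffin sections of non-cultured ovaries of 14-day-old mice, and the caps of a stage were pooled at extraction. No source says that the replicates came from separate animals, so the p-values below measure only the spread between these samples, which may be technical. The question was which transcripts stood at the top of the ovulated egg and which at the top of the young, growing oocyte.

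The stages differed in library preparation as well as in age. RNA of the laser-cut oocytes came from fixed tissue, was amplified as whole-transcriptome cDNA and was enriched with the TruSeq RNA Access kit, a capture method whose probes are directed at coding exons. RNA of the MII oocytes came from fresh cells and was converted by Smart-seq II, which primes from the poly(A) tail. Stage and preparation therefore cannot be told apart in any difference given here. For that reason genes were ranked within each library, from 1 for the most abundant, by reads per kilobase of merged exon length. A gene was called rank-separated where every library of one stage ranked it above every library of the other and placed it among its first 5000 genes. The rule depends on the number of genes detected, which differed between libraries. In primary-follicle replicate 1, with 6048 genes detected, 2 reads placed Acta2 at rank 4800. A gene could therefore count as lower in MII on few reads. Bub3 did so with 38 reads there, against 405, 362 and 405 in the MII libraries, which had fewer reads in total.

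As background, the growing oocyte transcribes and stores messenger RNA, and the fully grown oocyte is transcriptionally silent until after fertilization. During the meiotic divisions stored messages are translated or destroyed according to the length of their poly(A) tails. Dormant messages carry cytoplasmic polyadenylation elements near their 3′ ends, whereas messages of housekeeping machinery lose their tails and are degraded.

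The MII libraries held 7334817 to 9879491 counted reads over 14512 to 15622 genes, and the primary-follicle libraries 18437770 to 25495043 reads over 6048 to 12240 genes. The deeper libraries thus detected fewer genes. Within MII, Spearman correlations of ranks over the tested genes were 0.843 to 0.887, and the 3 libraries shared 720 of their first 1000 genes. Within primary-follicle oocytes the correlations were 0.513 to 0.576, and 237 of the first 1000 genes were shared. In primary-follicle oocytes 7705 genes reached 100 reads in some library, and 60.1% of them fell to 3 reads or fewer in another, against 0.865% of 7748 genes in MII. Absence from a primary-follicle library was thus common even among genes that another library of that stage read often. Primary replicate 2 stood apart, with 240844 reads of the smooth muscle actin Acta2, against 2 and 3 reads in replicates 1 and 3.

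Oocyte markers were read in both stages, whereas markers of somatic cells differed between them. The summed level of 11 oocyte markers was 9450 to 12000 CPM (reads per library scaled to a common total) in MII and 504 to 1150 in primary-follicle oocytes. Gdf9 carried most of the MII sum, and the other 10 markers summed to 1420 to 2330 CPM in MII and 454 to 1090 in primary-follicle oocytes. Of the 11, 6 were rank-separated higher in MII and 1, Ddx4, lower, against 13.5% and 7.22% of all tested genes. By edgeR 1 of the 11 was called higher and 1 lower, against 18.6% and 3.18% of all tested genes. All 6 cumulus markers were without reads in every primary-follicle library, and their sum was 0 to 2.23 CPM in MII, with Ptx3, Tnfaip6, Areg and Ereg at 0 reads. The 10 stroma and theca markers summed to 2.57 to 16.1 CPM in MII and to 960 to 38500 in primary-follicle oocytes. Col1a2, a collagen of stromal cells, had no read in any MII library and 15742, 96860 and 4755 reads in the primary-follicle libraries. The 8 blood and immune markers summed to at most 3.44 CPM in MII and to 247 to 1660 in primary-follicle oocytes, led by haemoglobin genes such as Hbb-bs with 0, 6607 and 4547 reads. The 4 endothelium markers ran the other way, summing to 119 to 230 CPM in MII and to 2.84 to 81.3 in primary-follicle oocytes. Pecam1 had 2105, 654 and 1187 reads in MII and Tek 92, 194 and 142, with none in primary-follicle oocytes, and edgeR called both higher. Cdh5, by contrast, had no read in MII and 0, 32 and 1499 in primary-follicle oocytes. The leukocyte markers Ptprc and Adgre1 had no read in any of the 6 libraries.

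**Figure D1:**
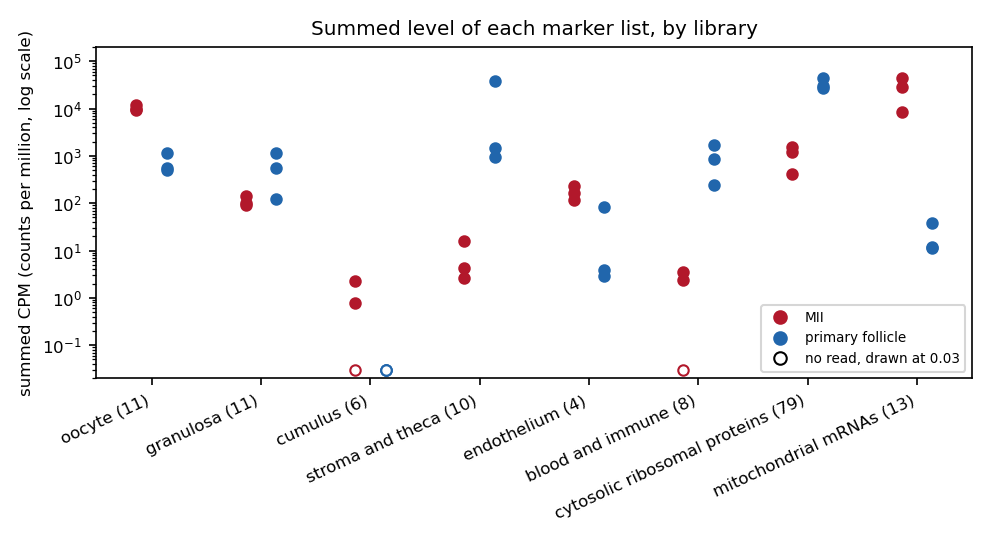
Summed level of each marker list in CPM (log scale) for each library, with the number of genes in each list in brackets. Stroma and theca markers reached 960 to 38500 in the 3 primary-follicle libraries and at most 16.1 in the 3 MII libraries, whereas mitochondrial messages were 8490 to 44400 in MII and 11.5 to 37.9 in primary-follicle oocytes.

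The 11 granulosa markers gave a mixed picture. The granulosa transcription factor Foxl2 had no read in MII and 214, 1183 and 2484 reads in primary-follicle oocytes. Wt1, expressed in pregranulosa cells, had 1 read in 1 MII library and 131, 17144 and 4404 reads in the primary-follicle libraries. Amh, a hormone of growing-follicle granulosa cells, had 0, 12 and 1 reads in primary-follicle oocytes and none in MII. Conversely the aromatase gene Cyp19a1, itself a granulosa marker, had 1039, 350 and 479 reads in MII and none in primary-follicle oocytes. The list as a whole summed to 92.0 to 143 CPM in MII and to 124 to 1170 in primary-follicle oocytes. The part of somatic RNA in the genes that ranked lower in MII was not tested.

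The most abundant protein-coding messages of the 2 stages had no gene in common. In MII the first 10 by median rank were mt-Cytb, mt-Atp8, H1foo, Zbed3, Bcl2l10, Dppa3, Tcl1, Gdf9, mt-Atp6 and mt-Nd1. Apart from the mitochondrial messages these are known oocyte genes, among them the oocyte linker histone H1foo, the maternal factor Dppa3 (Stella), the growth factor Gdf9 and Zbed3, a member of the subcortical maternal complex. H1foo (chr6:115944938-115950236, GRCm38) ranked 1, 3 and 3 in MII and 3008, 7393 and 3283 in primary-follicle oocytes. Gdf9 (chr11:53431023-53437904) ranked 6, 12 and 9 in MII and 1175, 1836 and 1500 in primary-follicle oocytes, where it stood alone among these genes in being read more than 1000 times in every library. Dppa3 had 41861, 30011 and 40199 reads in MII and 18, 10 and 37 in primary-follicle oocytes.

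In primary-follicle oocytes the first 10 were Actb, Ubb, Rpl32, Hist2h3b, Hist2h2bb, Ppia, Hist1h4h, Rps15, Ybx2 and Eef1a1. These encode cytoskeletal actin, ubiquitin, ribosomal proteins, histones, a prolyl isomerase, a translation elongation factor and Ybx2 (MSY2), the germ-cell protein that coats stored messages. Actb (chr5:142903115-142906754) ranked 1, 1 and 2 in primary-follicle oocytes and 4272, 1815 and 2194 in MII. Ubb ranked 18, 8 and 6 in primary-follicle oocytes and remained high in MII, at 234, 253 and 221. Ybx2 ranked 9, 71 and 22 in primary-follicle oocytes and 7637, 2627 and 3741 in MII.

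Over the 53620 genes ranked, 2293 were rank-separated higher and 1229 lower in MII, which is 13.5% and 7.22% of the 17011 genes with 10 or more reads over the 6 libraries. The first 1000 genes by median rank shared 173 genes between the stages. Rank correlations between an MII and a primary-follicle library were 0.108 to 0.304, below every value within a stage. Of the genes ranked higher in MII, 701 had no read in any primary-follicle library, and 376 had none in any of the 12 laser-cut libraries of the series, primordial and cultured ones included. Absence of reads was common among all tested genes too: their median rank in primary-follicle oocytes was 53620, the last rank, given to genes without reads. The numbers of all tested genes without any read in these libraries were not counted. Of the genes ranked lower in MII, 82 had no read in any of the 3 MII libraries. Genes other than protein-coding ones made up 22.7% of those ranked higher and 3.34% of those ranked lower, against 19.9% of all tested genes.

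**Figure D2:**
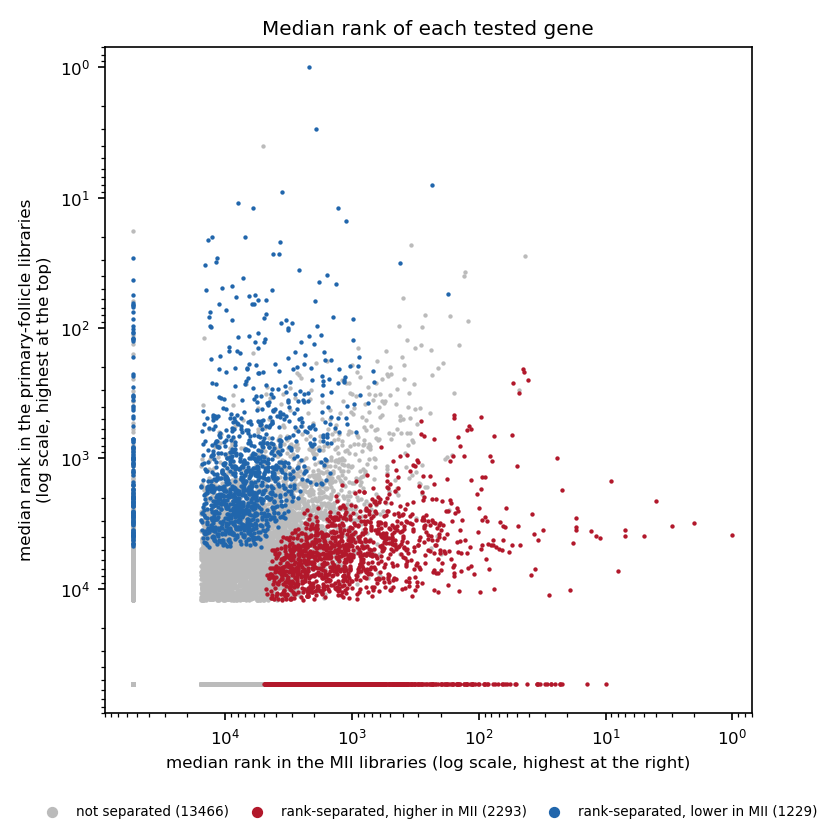
Median rank of each tested gene in the 3 MII libraries (horizontal, log scale) and in the 3 primary-follicle libraries (vertical, log scale), with the highest ranks at the right and top. The lines of points at the left and bottom are genes without reads in the median library, and the 2293 genes ranked higher in MII and the 1229 ranked lower lie on opposite sides of the diagonal.

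The count model called more genes higher and fewer genes lower in MII than the rank rule, and its calls were lost when an MII library was left out. With edgeR's quasi-likelihood test (Benjamini-Hochberg adjusted p below 0.05 and a fold of 2 or more), 3171 genes (18.6%) were called higher and 541 (3.18%) lower in MII. The median tested gene stood 1.89 above 0 on the log2 scale with TMM scaling, 2.2 with DESeq2 size factors and 2.82 with library size alone, and the last scaling called 3719 genes higher and 364 lower. Log2 fold changes are therefore given with their value relative to that median. Leaving out MII replicate 1, 2 or 3 left edgeR with 0 calls in either direction, while 4222, 4548 and 4170 genes kept an unadjusted p below 0.05 for higher and 666, 733 and 877 for lower, so each edgeR call below rests on all 3 MII libraries. Of the rank-separated genes, 1145 of those higher and 506 of those lower were also called by edgeR, and none was called in the other direction.

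The largest upward shifts in rank belonged to oocyte-restricted multigene families and mitochondrial messages. The 12 protein-coding genes named by rule were mt-Cytb, Oosp1, Obox2, Omt2a, Ccdc69, Omt2b, mt-Atp8, Tcl1b1, Oog3, H1foo, Obox5 and Obox1. Obox2 and Obox1, oocyte-specific homeobox genes, ranked 23 to 32 and 41 to 82 in MII and had no read in primary-follicle oocytes. Obox2 had 36730, 16956 and 24540 reads in MII, at least 10300-fold higher than the floor of 3 reads per library. Oog3, an oocyte leucine-rich repeat gene, had 41537, 12129 and 19677 reads in MII and none in primary-follicle oocytes. Obox, Omt2, Tcl1b and Oog genes have near-identical copies, so the split of reads within each family is uncertain. Oosp1, an oocyte-secreted protein, ranked 28, 23 and 20 in MII and was read only in primary replicate 3, with 19 reads.

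The largest downward shifts belonged to Actb, replication-dependent histones and ribosomal proteins. The 12 named genes were Actb, Hist1h4a, Hist1h2ah, Hist1h4k, Hist1h4d, Hist2h3b, Hist1h3e, Rps15, Hist1h4h, Rpl9, Rps27 and Hist1h2bj. Messages of clustered histone genes end in a stem-loop and mostly lack a poly(A) tail, and their copies are near-identical. Hist1h3e had 10313, 14121 and 7743 reads in primary-follicle oocytes and none in MII, at least 2910-fold lower in MII against the floor. Of 57 tested clustered histone genes, 29 ranked lower in MII and 1 higher, against 7.22% and 13.5% of all tested genes. This group was added after its values were seen. The 1 ranked higher was Hist1h2aa, with 52, 69 and 76 reads in MII and none in primary-follicle oocytes. Clustered histone genes took 0.988% to 2.13% of reads in primary-follicle oocytes and 0.00238% to 0.00469% in MII.

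**Figure D3:**
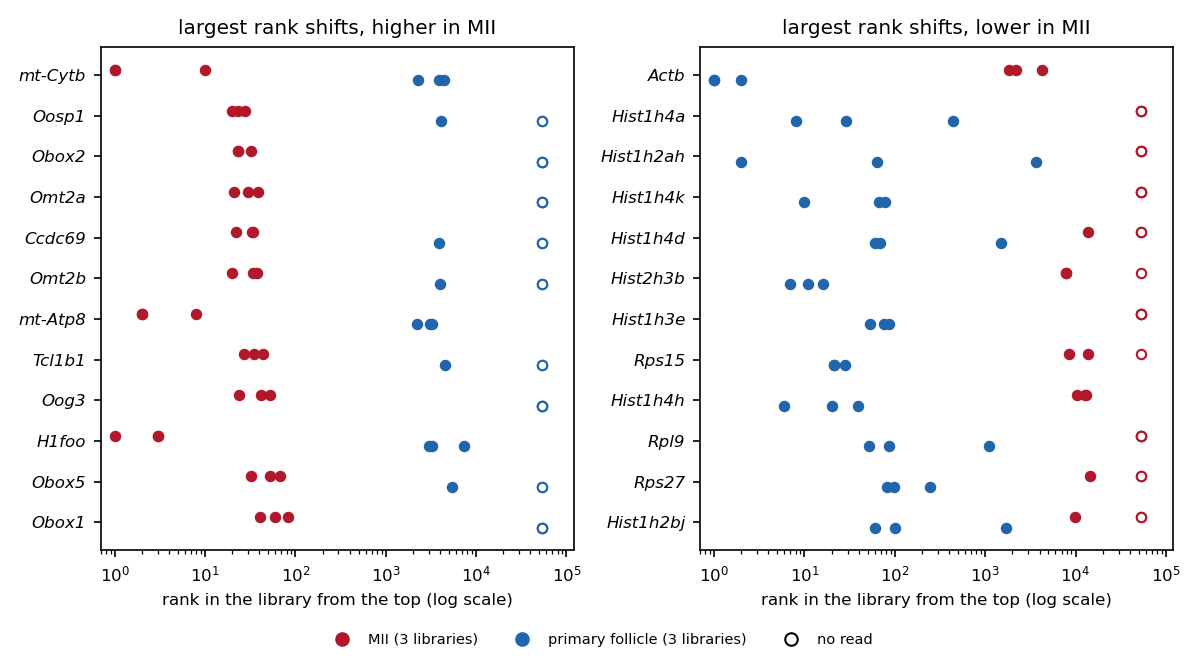
Rank from the top in each library (log scale) of the 12 protein-coding genes with the largest rank shift in each direction, with open circles for libraries without a read. H1foo ranked 1 to 3 in MII and 3008 to 7393 in primary-follicle oocytes, whereas Actb ranked 1 to 2 in primary-follicle oocytes and 1815 to 4272 in MII.

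Ribosomal protein messages ranked lower in MII as a group. Of 79 cytosolic ribosomal protein genes, 62 were rank-separated lower and none higher, and edgeR called 48 lower and none higher. Among all tested genes, 7.22% were rank-separated lower and edgeR called 3.18% lower. Their median rank was 488 in primary-follicle oocytes and 9139 in MII, against 8647 in MII for all tested genes. Together they made up 27200 to 45300 CPM in primary-follicle oocytes and 421 to 1520 in MII, with no overlap. Rpl9 was read 38714, 53320 and 2532 times in primary-follicle oocytes and not at all in MII. Rps2 and Rpl22 did not separate: Rpl22 ranked 3226, 2550 and 2855 in MII and 2586, 4060 and 3135 in primary-follicle oocytes. Ribosomal protein genes have many processed copies in the genome, and the counts do not show how such reads were assigned.

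Mitochondrial messages moved the other way. Of the 13 messages encoded by mitochondrial DNA, 11 were rank-separated higher in MII and none lower, and edgeR called all 13 higher. The remaining mt-Co2 and mt-Co3 had 9 to 39 and 29 to 220 reads in MII and none in primary-follicle oocytes. The log2 fold change of mt-Cytb was 10.73 ± 1.36 (SE, edgeR adjusted p = 0.0324), or 8.84 relative to the median gene. MII replicate 1 was the lowest MII library for each of the 6 mitochondrial genes named by rule, for example with 45215 reads of mt-Cytb against 171329 and 141668. The genes of mt-Atp8 and mt-Atp6 overlap on one strand at bases 7927 to 7969, and reads within those bases cannot be assigned separately. Of 73 nuclear genes for the same complexes, 6 ranked higher and 10 lower, against 13.5% and 7.22% of all tested genes. By edgeR 2 of the 73 were called higher and 2 lower, against 18.6% and 3.18%. Cox8a rose from rank 4969 at best to ranks 902, 110 and 138, and Atp5g1 fell from ranks 50, 712 and 219 to 9550 at best. The mitochondrial ribosomal RNA mt-Rnr2 stayed high in both stages, at ranks 18 to 262 in MII and 26 to 53 in primary-follicle oocytes.

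Of the 4 oocyte growth factors, Gdf9, Bmp15 and Bmp6 ranked higher in MII, against 13.5% of all tested genes, and edgeR called only Gdf9. The ranks of 2 of the 3 zona pellucida genes overlapped between the stages. Bmp15, the X-linked partner of Gdf9, had 2707, 2722 and 1722 reads in MII and 24, 0 and 38 in primary-follicle oocytes, and its edgeR adjusted p was 0.0641. The log2 fold change of Gdf9 was 6.17 ± 0.77 (SE, edgeR adjusted p = 0.0324), 4.28 relative to the median gene. Fgf8 overlapped, with 44, 108 and 53 reads in MII and 1, 1 and 197 in primary-follicle oocytes. Of the zona genes, whose products form the egg coat, Zp1 ranked 1280, 1088 and 974 in MII and 1243, 1981 and 879 in primary-follicle oocytes, which overlap. Zp2 also overlapped in rank, at 3051, 2931 and 2587 against 2157, 5399 and 2573. Its CPM did not overlap, at 31.6, 44.3 and 50.3 in MII and 9.49, 8.02 and 22.3 in primary-follicle oocytes. Zp3 separated narrowly, at 806, 240 and 526 against 1314, 2518 and 1677, and edgeR did not call it. Its log2 fold change was 1.32 ± 1.21 (SE, edgeR adjusted p = 0.403), or -0.57 relative to the median gene.

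**Figure D4:**
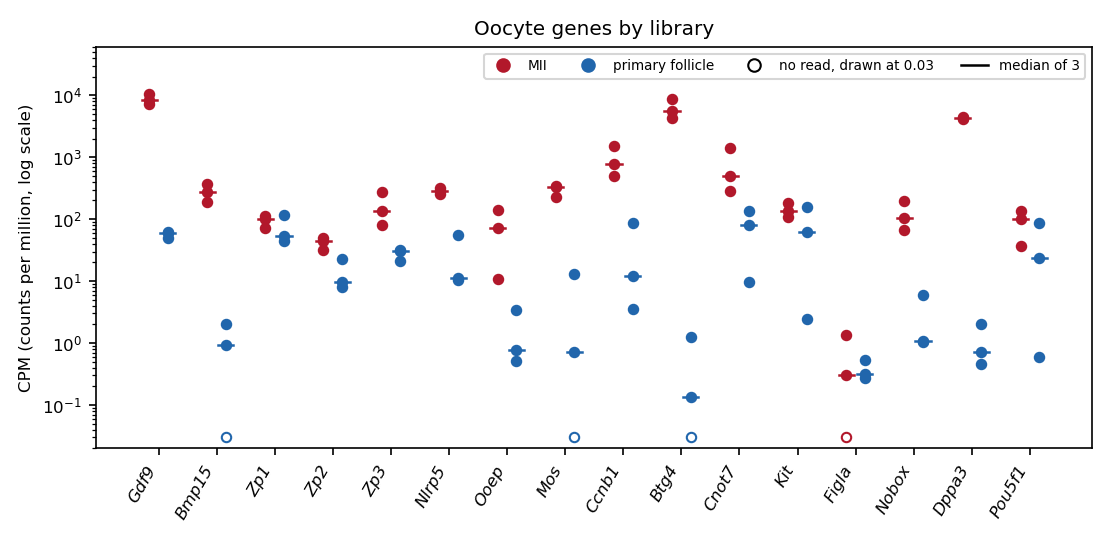
CPM (log scale) of 16 oocyte genes in each library, with a bar at the median of each 3 libraries. Gdf9 and Dppa3 are higher in all MII libraries than in any primary-follicle library, whereas Zp1, Kit, Figla and Pou5f1 overlap.

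The subcortical maternal complex, which the early embryo inherits from the egg, ranked higher in MII. Of 8 tested members, 6 were rank-separated higher and none lower, against 13.5% and 7.22% of all tested genes. By edgeR 2 of the 8 were called higher, against 18.6% of all tested genes. Zbed3 ranked 2, 7 and 4 in MII and 1930, 5089 and 2123 in primary-follicle oocytes. Nlrp5 (MATER) had 3104, 2116 and 2296 reads in MII and 284, 231 and 1030 in primary-follicle oocytes, and Tle6 1515, 2557 and 2140 against 102, 152 and 241. Neither was called by edgeR (adjusted p = 0.172 and 0.0696), and Nlrp5 stood 0.54 above the median gene on the log2 scale. Ooep did not separate in rank, because MII replicate 1 ranked it at 4970, below the best primary-follicle rank of 3414. Its CPM did not overlap, at 10.7, 140 and 71.9 in MII and 0.51, 0.766 and 3.36 in primary-follicle oocytes. Khdc3 did not separate in rank either, at 4296, 5602 and 7310 in MII against 3555, 7763 and 4253. Among 11 oocyte transcription factors, Nobox and Sall4 ranked higher and Foxo3 lower in MII, near the shares of all tested genes. Sall4 had 4964, 4948 and 5548 reads in MII and 41, 441 and 79 in primary-follicle oocytes (edgeR adjusted p = 0.0333). Foxo3, the brake on follicle activation, ranked 1268, 833 and 932 in MII and 624, 238 and 813 in primary-follicle oocytes. Neither Foxo3 nor Nobox was called by edgeR (adjusted p = 0.0972 and 0.0875). Figla, which activates the zona genes, was near the floor throughout, with 3, 0 and 12 reads in MII and 7, 7 and 10 in primary-follicle oocytes. Kit and Pou5f1 overlapped between the stages.

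Regulators of message storage divided between the stages. Of 15 tested genes, 4 ranked higher in MII (Zar1, Dazl, Pabpn1l and Igf2bp3) and 4 lower (Cpeb1, Ybx2, Ddx6 and Ddx4), and edgeR called the latter 4. Among all tested genes, 13.5% ranked higher and 7.22% lower. Cpeb1, which binds cytoplasmic polyadenylation elements, ranked 114, 621 and 111 in primary-follicle oocytes and 1465, 1776 and 1831 in MII. Ddx4 (VASA), a germ-cell helicase, ranked 432, 1044 and 156 against 2928, 5690 and 4176. Zar1, an egg RNA-binding protein, ranked 138, 347 and 336 in MII and 2646, 5767 and 1856 in primary-follicle oocytes. The decay machinery divided likewise, with 4 of 19 tested genes higher and 8 lower. Btg4, the adaptor that brings the deadenylase to maternal messages, had 85883, 31470 and 49755 reads in MII and 0, 3 and 23 in primary-follicle oocytes. The deadenylase subunit Cnot7 ranked higher at 165, 1142 and 664 against 2426, 1923 and 2136, whereas the scaffold Cnot1 ranked lower at 8774, 12035 and 9954 against 440, 421 and 312.

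Cell-cycle genes of the meiotic divisions ranked higher in MII more often than lower. Of 24 tested genes of maturation and metaphase arrest, 14 were rank-separated higher and 2 lower, against 13.5% and 7.22% of all tested genes. By edgeR 3 of the 24 were called higher and 1 lower, and the share called higher did not exceed the 18.6% of all tested genes. Mos, the kinase that holds metaphase arrest, had 3424, 2444 and 2010 reads in MII and 0, 16 and 237 in primary-follicle oocytes. Ccnb1, the M-phase cyclin, ranked 111, 441 and 261 in MII and 2714, 5422 and 1832 in primary-follicle oocytes. Neither was called by edgeR, at adjusted p = 0.148 and 0.0983. Fbxo43 (EMI2), which inhibits the anaphase-promoting complex, had 5914, 1470 and 2161 reads in MII and 0, 2 and 0 in primary-follicle oocytes, and was called. The 2 genes ranked lower act with that complex: its activator Fzr1 and its ubiquitin-conjugating enzyme Ube2c, which ranked 355, 1005 and 468 in primary-follicle oocytes and 9002, 4341 and 8054 in MII.

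Of 28 tested spindle and checkpoint genes, 14 ranked higher and 3 lower, against 13.5% and 7.22% of all tested genes. By edgeR 5 of the 28 were called higher and 1 lower. The share called higher did not exceed the 18.6% of all tested genes. Aurkc, the germ-cell Aurora kinase, had 5146, 2603 and 3733 reads in MII and 0, 0 and 1 in primary-follicle oocytes. The securin gene Pttg1 had 14962, 20354 and 23123 reads in MII and 0, 16 and 21 in primary-follicle oocytes. Tuba1c, an alpha-tubulin, was lower, ranking 24, 154 and 57 in primary-follicle oocytes and 7640, 6243 and 6559 in MII. Genes of cyclic AMP signalling, which holds oocytes in prophase, gave 4 of 10 higher (Gpr3, Adcy9, Pde3a and Prkaca) and Gnas lower. Of these, edgeR called only Gnas. Gnas, the stimulatory G protein, ranked 337, 127 and 73 in primary-follicle oocytes and 6572, 3987 and 4965 in MII. Of 20 tested meiotic prophase genes, 7 ranked higher and none lower, although recombination precedes both stages. By edgeR 4 of the 20 were called higher, near the 18.6% of all tested genes. Syce2, of the synaptonemal complex, had 3540, 3188 and 4311 reads in MII and 59, 6 and 19 in primary-follicle oocytes, while Spo11, which makes the breaks, had no read in any of the 6 libraries.

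Among 15 genes for sperm binding and egg activation, 6 ranked higher and 4 lower, against 13.5% and 7.22% of all tested genes. Izumo1r (Juno), the egg receptor for the sperm protein Izumo1, had 302, 491 and 408 reads in MII and 0, 0 and 45 in primary-follicle oocytes. Itpr1, the calcium-release channel of the egg, ranked lower at 4696, 5551 and 5881 against 585, 1862 and 1164. Of 21 tested genes of DNA methylation and reprogramming, 8 ranked higher, among them Dppa3, Uhrf1, Zfp57 and Dnmt3l, and 3 lower, Dnmt3a, Kdm5b and Ehmt2. By edgeR 4 of the 21 were called higher, near the 18.6% of all tested genes, and none lower. Dnmt3a had 1474, 3339 and 3983 reads in MII and 3275, 10592 and 8502 in the deeper primary-follicle libraries (edgeR adjusted p = 0.371). Dnmt3l, the cofactor for imprint methylation, had 178, 500 and 364 reads in MII and none in primary-follicle oocytes. Uhrf1 had 7019, 6771 and 7426 reads in MII and 75, 172 and 260 in primary-follicle oocytes. Of 10 genes of oocyte and granulosa contact, Cdh1, Cdh3 and Fmn2 ranked higher and Tjp1 lower, and edgeR called none.

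Glycolysis and proteasome genes ranked lower in MII more often than higher, against 7.22% lower and 13.5% higher among all tested genes. Of 16 glycolysis genes, 7 ranked lower in MII, including Pkm, Gapdh and Ldha, and 1 higher, while edgeR called 3 lower and 2 higher. The gene ranked higher, Ldhb, the lactate dehydrogenase subunit of the egg, ranked 44, 22 and 21 in MII and 1645, 3354 and 1751 in primary-follicle oocytes, while Ldha had no read in MII and 90, 286 and 115 in primary-follicle oocytes. Of 32 proteasome subunits, 9 ranked lower and 2 higher, and edgeR called 3 lower and none higher. Psmb2 ranked 201, 253 and 81 in primary-follicle oocytes against 2112, 2153 and 1994 in MII. Of 22 sterol and fatty acid genes, 4 ranked lower and 2 higher, whereas edgeR called the same 2, Idi1 and Sc5d, higher and none lower. In culture 5 of this list ranked lower and 4 higher. Of 11 tested immediate early genes, which respond within minutes to stimuli, 3 ranked higher and none lower. Egr1 had 627, 935 and 588 reads in MII and 0, 487 and 170 in primary-follicle oocytes.

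**Figure D5:**
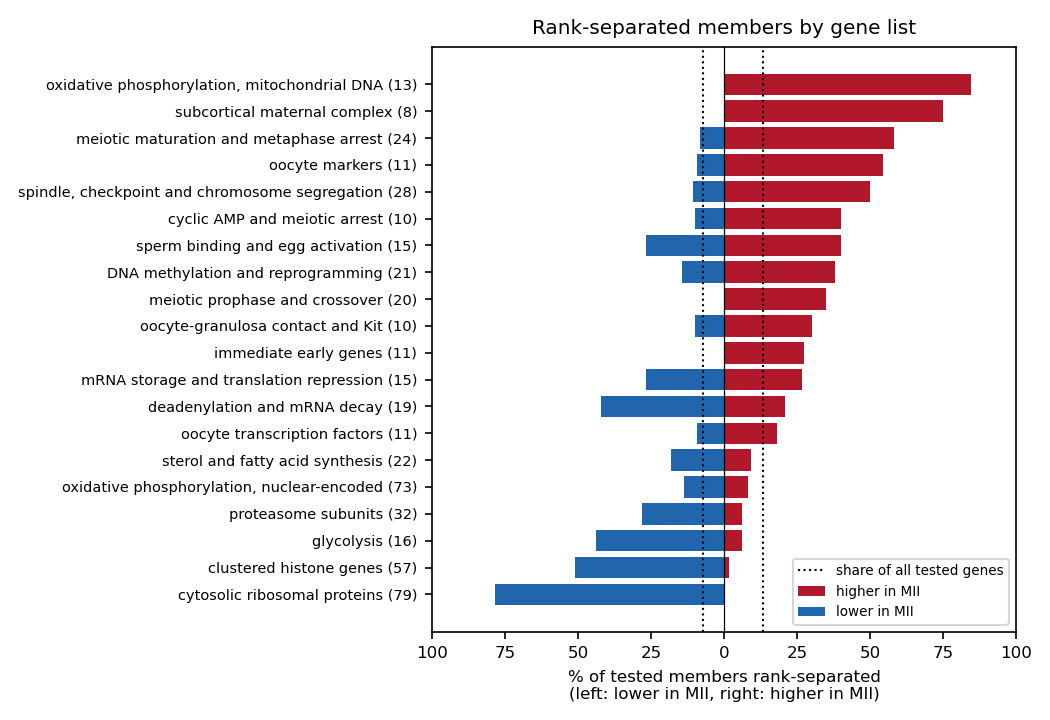
Percent of the tested members of each gene list with 8 or more of them (number in brackets) that were rank-separated lower (left) or higher (right) in MII, with dotted lines at 7.22% and 13.5%, the shares among all tested genes. Among the lists drawn, mitochondrial messages and the subcortical maternal complex lie farthest to the right, with 11 of 13 and 6 of 8 members (the 4 oocyte growth factors, of which 3 ranked higher, are not drawn), and ribosomal proteins farthest to the left, with 62 of 79.

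Some messages ranked high in both stages. The first 1000 genes of all 6 libraries had 40 in common, including the chaperones Hsp90ab1 and Hsp90aa1, the nucleolar protein Npm1, the histone H3f3b and the beta-catenin gene Ctnnb1. Hsp90ab1 ranked 188, 161 and 175 in MII and 92, 55 and 41 in primary-follicle oocytes. H3f3b, a replication-independent histone whose message is polyadenylated, ranked 35, 66 and 45 in MII and 91, 207 and 542 in primary-follicle oocytes, unlike the clustered histone genes.

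The 3′ ends of the annotated transcripts were then read, since stored messages carry their translational signals there. Cytoplasmic polyadenylation elements were searched as TTTTAT or TTTTAAT on the transcript strand in the last 100 bases, and poly(A) signals as AATAAA or ATTAAA in the last 40. TTTTAAT can overlap AATAAA. An element was found in 28.2% of 1692 protein-coding genes ranked higher in MII with such an annotated end, in 16.9% of 1108 ranked lower and in 20.1% of 12988 tested. A poly(A) signal was found in 82.4%, 75.5% and 77.2%. Among genes that had a poly(A) signal, the shares with an element were 30.4%, 16.1% and 20.9%. The median share of A and T in the window was 66.0%, 65.0% and 65.0%.

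Examples from the named genes, chosen after their sequences were seen, show the 30 bases that end with the last poly(A) signal of the GENCODE transcript on GRCm38, 5′ to 3′ on the transcript strand, with both kinds of motif in capitals. The first 5 genes ranked higher in MII and hold both motifs, the next 2 ranked higher and hold only the signal, and the last 3 ranked lower and hold only the signal.
Gdf9, chr11:53437858-53437887 (plus strand): tgctgtggTTTTATgtgacggaagAATAAA
Bcl2l10, chr9:75351588-75351617 (plus strand): catTTTTAATaacttcaaattcttAATAAA
Wee2, chr6:40466764-40466793 (plus strand): cataTTTTAATccagatcattgtaAATAAA
Aurkc, chr7:7003042-7003071 (plus strand): tttctcTTTTATgaagtgatgttaATTAAA
Cnot7, chr8:40493041-40493070 (minus strand): aagtcttaaggtacaTTTTATatcAATAAA
Dppa3, chr6:122630230-122630259 (plus strand): acgttctaatttccagaaatttgtAATAAA
Pttg1, chr11:43420283-43420312 (minus strand): tagtttctgtatgtatgttgtattAATAAA
Actb, chr5:142903141-142903170 (minus strand): tggcctgtacactgacttgagaccAATAAA
Ppia, chr11:6419770-6419799 (plus strand): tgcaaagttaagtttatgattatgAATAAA
Ubb, chr11:62553161-62553190 (plus strand): gctgaacctctgttaaaaaatgttAATAAA

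The runs of Gdf9, Bcl2l10, Wee2, Aurkc and Cnot7 belong to messages that ranked at best 6, 4, 90, 116 and 165 in MII. Dppa3 and Pttg1 ranked 6 and 33 at best and held no element in their last 100 bases, and neither did Actb, Ppia or Ubb. A match is a description of letters in the annotated end, and the poly(A) tails themselves were not measured.

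The same stages were set against each other after growth in culture, with 3 MII and 3 primary-follicle libraries that are not among the 6 above but share their difference in preparation. There 2679 genes were rank-separated higher and 1920 lower in MII. Of the genes separated in vivo, 1839 of those higher (80.2% of the in vivo list and 68.6% of the cultured list) and 848 of those lower (69.0% and 44.2%) were separated the same way in culture, and 12 and 5 the opposite way. Ribosomal protein genes ranked lower in 76 of 79 cases in culture and mitochondrial messages higher in 11 of 13. Over all 6 MII against all 12 laser-cut libraries, which include the 6 above, 1442 of the genes higher in vivo (62.9%) and 455 of those lower (37.0%) stayed separated, with 51 ribosomal protein genes among the latter. An interaction of stage with culture was tested with edgeR over 19764 genes and called 0 genes (0%), the smallest adjusted p being 0.0914, while 1822 genes had an unadjusted p below 0.05 and DESeq2 called 630.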

How the data were processed

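The deposited table held whole-number counts of reads per gene for 53715 genes, which per the labels and the study's methods the authors made with Trim Galore 0.4.1, TopHat2 (mm10) and featureCounts. Strand settings were not given in the sources used here. A deposited table of TPM (length-scaled values) for 28252 genes served as an alternative. Symbols, positions and merged exon lengths came from GENCODE mouse release 21 (53620 genes matched). Of 174 named genes, 35 overlap another gene on the same strand and 54 on the other, counted over whole gene spans with introns. Where the exons of such a pair overlap, reads in the shared bases may not be told apart.

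Ranks gave the worst rank to ties, so genes without reads came last. edgeR 4.0.16 (quasi-likelihood, TMM, at least 10 reads over the 6 libraries) tested 17011 genes, 16988 with a length, with R 4.3.3, and DESeq2 1.42.0 was an alternative. The edgeR test gives no SE, so each printed SE is the absolute log2 fold change divided by the square root of the F statistic. The floor of 3 reads was 0.118 to 0.409 CPM, and floors cover counting error only. Named genes were the first 10 protein-coding genes per stage by median rank, the 12 with the largest rank shift in each direction among genes both rank-separated and called by edgeR, up to 6 per gene list by edgeR p, and a fixed set of 21 oocyte and somatic genes. The members and lists were chosen with earlier results of these data known.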

Additional observations from a re-analysis of the deposited data

How the results depend on the processing

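Counts of edgeR calls depended on the processing. DESeq2 called 5486 genes higher and 1509 lower in MII, and edgeR on all 18 libraries called 886 lower. Leaving out single libraries gave 0 to 4808 calls higher and 0 to 1166 lower, with 0 whenever an MII library was left out; without primary replicate 1 the lower count was 1166, and without primary replicate 2 the higher count was 4808. The same replicate numbers did not pair the samples (correlations of deviations from 0.00773 down to -0.0102 over all pairs), and a replicate block left 86 genes higher and 141 lower. The common biological coefficient of variation was 0.782 in MII and 2.34 in primary-follicle oocytes. Rank-separated counts can only grow when a library is left out, because the rule asks for every library, so this is no check of their stability. Those higher ran from 2378 to 2684 over single left-out libraries. Those lower ran from 1245 to 1975, the latter without primary replicate 1. The first 3000 genes in place of 5000 gave 683 lower. Deposited TPM, which is length-scaled like the ranked values, kept 2266 of 2293 and 1221 of 1229 genes. Ranks of raw read counts without length kept 1793 and 1013. Ribosomal protein genes ranked lower in 56 to 71 of 79 cases under the alternatives, added after the data were seen. DESeq2 called 630 genes in the interaction with culture. None of the 100 named genes called by edgeR changed sign. Of the 74 not called, 7 did: Adcy3 (log2 fold change 1.28 with the replicate block and -3.59 to 2.41 over left-out libraries), Fgf8 (-0.46 to 6.28), Figla (0.54 with library size alone and -2.04 to 0.03), Kit (-0.52 to 1.44), Pou5f1 (-0.35 to 2.07), Prkar2b (-3.39 to 0.09) and Zp1 (0.43 with library size alone). The causes were not tested.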
